A study of Mus musculus with 6 samples.

Results

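The 10 genes described here move iron and heme precursors across mitochondrial membranes or sense and break down heme. They were Slc25a37, Slc25a28, Slc25a38, Slc25a39, Abcb6, Abcb10, Tmem14c, Clpx, Bach1 and Hmox2, and they were taken by gene name from a table of 52459 genes, in which all 10 were present. They were read in RNA-seq of megakaryocytic-erythroid progenitors, marrow precursors of both the red cell and the megakaryocyte, the source of platelets. The comparison was between 3 wild-type (WT) libraries and 3 libraries of Tmprss6-/- mice (KO), each made from the pooled cells of 3 mice. Tmprss6 is a liver protease that holds down hepcidin, so its loss starves the body of iron, and the series title names iron deficiency as the condition. For both genotypes the sort took cKit and CD150 positive cells and left out those with lineage markers, Sca, Fc gamma receptor, CD105 or CD41. The sources used here give no strain, age, sex or knockout design.

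Heme is built partly in the cytosol and partly in mitochondria, so a red cell precursor must carry glycine and iron into the organelle, move porphyrin intermediates in, and let finished heme out. The mitoferrins Slc25a37 and Slc25a28 bring iron across the inner membrane, Slc25a37 being the form used in erythroid cells. Free heme is then read by sensors such as the repressor BACH1, and is broken down by heme oxygenases.

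Total counts were 13402209 to 22986837 per library, and levels are given as CPM, counts divided by a library size scaled with TMM factors. Tmprss6 itself had 0 to 5 counts in every library and checked no label. Markers of early erythroid cells summed to 10380 to 11860 CPM in WT and to 10370 to 14150 CPM in KO, and megakaryocyte markers to 192 to 248 CPM and 197 to 344 CPM. Car1 and Car2 were the largest parts of the early erythroid sum, which hides single genes. Of its 10 genes, 5 had a higher and 5 a lower estimate in KO. Tfrc (65.5 to 100.5 CPM in WT, 204 to 476 CPM in KO) and Rhag (80.6 to 107.4 and 123.5 to 281 CPM) were higher without overlap, as 2.27% of all genes tested were. The library KO 2 stood apart, as it held transcripts of other blood cells. Its macrophage markers summed to 2031 CPM against 24.6 to 167 CPM elsewhere (8 of 8 genes highest there), neutrophil precursor markers to 3187 against 75.3 to 359 CPM (8 of 8), and eosinophil, basophil and mast cell markers to 6413 against 40.2 to 667 CPM (8 of 8). Late erythroblast markers summed to 5737 CPM there against 536 to 938 CPM (9 of 10), and B and plasma cell markers to 1372 CPM, with 1094 CPM in KO 3 and 47.3 to 176 CPM in the other 4. No marker in these lists was at 0 in all 6 libraries. Values are therefore also given for the pairs 1 and 3 alone, where a pair means the WT and KO libraries of 1 replicate number. These pairs differed in other blood cell transcripts too. At an edgeR adjusted p under 0.05 (0.862% of all genes there), Prg2, Prg3, Epx, Mcpt8, Ngp and Ltf of these lists were lower in KO. Higher were Jchain (0.23 and 0.50 CPM in WT 1 and WT 3, 1.59 and 124 CPM in KO 1 and KO 3), Tfrc (edgeR adjusted p = 1.7e-06), Rhag (0.034) and 4 late erythroblast markers named below. By their Xist counts (351 in WT 3, 175 in KO 3, 0 or 1 in the other libraries) and Ddx3y counts (0 or 1 against at least 872), both libraries numbered 3 were female and the others male.

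None of the members passed the test between genotypes. Of the 10 genes, 9 passed the filter on low counts, 6 of them with a higher and 3 with a lower estimate in KO. Among all genes tested, 6626 had a higher and 6827 a lower estimate. With edgeR's quasi-likelihood test and Benjamini-Hochberg adjustment over all 13453 genes, 0 members and 0 genes (0%) had an adjusted p under 0.05. At an unadjusted p under 0.05 there were 0 members and 234 genes (1.74%). The median log2 fold change, KO over WT, was 0.13 for the 9 members and -0.0048 for all genes tested. Adding the replicate number to the fit as a block left 0 genes past the threshold (0%), with 476 genes (3.54%) and 0 members at an unadjusted p under 0.05. In the pairs 1 and 3 with that block, 117 of 13572 genes passed (0.862%), 35 higher and 82 lower in KO, and again 0 members. There 1 member, Slc25a39, had an unadjusted p under 0.05, as had 1789 genes (13.2%). DESeq2 called 6 genes (0.045%) and 0 members, with 346 of 13453 genes and 1 member, Slc25a37, at an unadjusted p under 0.05. For Slc25a37 the edgeR unadjusted p was also under 0.05 without the filter (0.033), without KO 1 (0.011) and without KO 3 (0.04995). So it was for 850 of 25640, 667 of 13944 and 571 of 14045 genes.

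**Figure D1:**
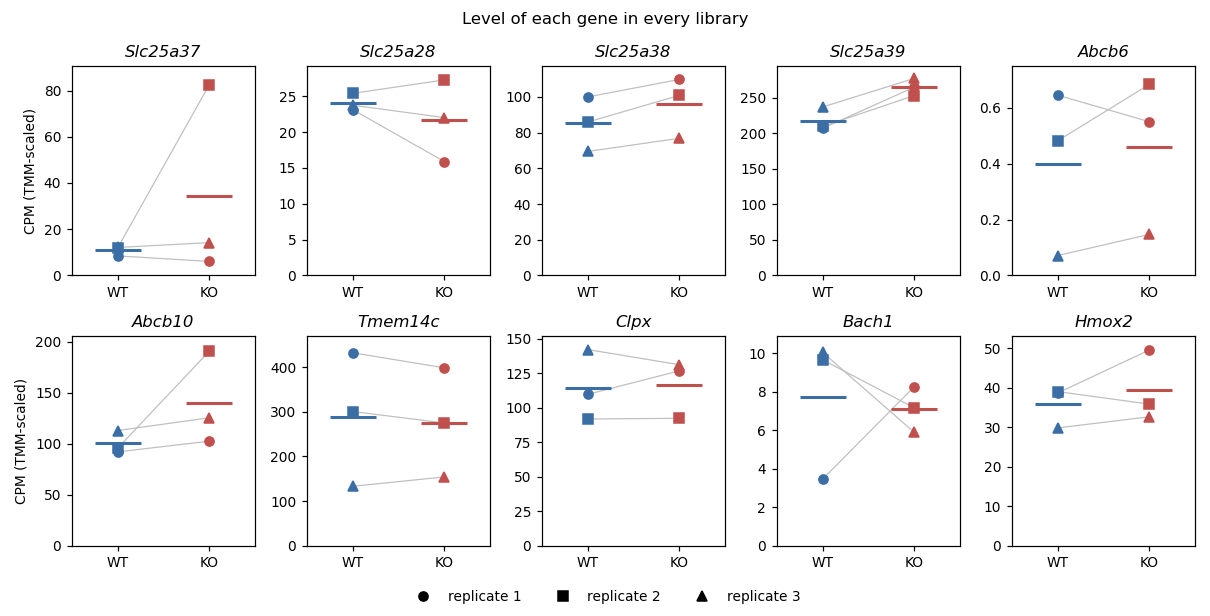
Each panel plots the CPM of 1 gene (linear axis from 0) in the WT and KO libraries, with the replicate number as the marker shape, a grey line between libraries of the same number and a bar at the group mean. Slc25a37 is high in KO 2 alone (82.5 CPM), Slc25a39 is higher in all 3 KO libraries than in any WT library, and Tmem14c falls into the same order of replicate numbers in both genotypes.

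The mitoferrins are close relatives, so it matters whether their reads can be told apart. Over 999 aligned bases of their coding sequences, 73.5% were identical, and the longest identical run was 15 bases. The windows around that run, from GENCODE M21 transcripts, are shown because they hold the longest exact match of the pair. Other windows were not searched for fewer mismatches. Capitals mark the run, positions count from the first base of the start codon, and the windows differ at 10 of 60 bases.
Slc25a37, coding bases 588 to 647: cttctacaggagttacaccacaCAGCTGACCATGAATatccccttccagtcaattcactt
Slc25a28, coding bases 669 to 728: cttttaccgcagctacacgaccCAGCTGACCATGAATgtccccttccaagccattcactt
No 50-base window of Slc25a28's longest coding transcript (ENSMUSG00000040414, chromosome 19, 43663822 to 43674881, minus strand) occurred in the transcripts of another gene. For Slc25a37 (ENSMUSG00000034248, chromosome 14, 69241848 to 69285112, minus strand) 8.07% of such windows did, in 5 genes of chromosome 14, each listed at 0 counts in all 6 libraries.

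Slc25a37, mitoferrin 1, was at 8.44, 11.9 and 12.1 CPM in WT 1 to 3 and at 6.05, 82.5 and 14.2 CPM in KO 1 to 3. The counts behind these values were 183, 173 and 170 in WT and 99, 1327 and 193 in KO. One library, KO 2, thus carried the difference of the means (WT 10.8 ± 2.06 CPM, KO 34.3 ± 42.0 CPM, SD, n = 3), while KO 1 was the lowest of all 6. The log2 fold change was 1.66 (SE 0.84, 95% interval -0.28 to 3.61, edgeR adjusted p = 1.00). Without KO 2 it was -0.099, and in the pairs 1 and 3 it was -0.12 (SE 0.29, interval -0.74 to 0.50, edgeR adjusted p = 0.92), so the sign rested on that library. Its Slc25a37 level exceeded the mean log2 CPM of the other 5 libraries by 3.02. The summed level of every marker list but the early erythroid one was highest in the same library. The part of these markers in the Slc25a37 value was not tested.

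The genes whose log2 CPM followed Slc25a37 most closely over the 6 libraries, among 8811 with a mean of at least 10 CPM, were Pla2g15 (Pearson r = 0.998), Ank1 (0.997), Plxnb2 (0.994), Fam129a (0.992) and Mki67 (0.991). Ank1 encodes ankyrin 1 of the red cell membrane skeleton, and Mki67 marks proliferating cells. All of them were highest in KO 2, with Ank1 at 50.5 CPM there against 8.56 to 13.4 CPM elsewhere and Mki67 at 121.8 against 19.9 to 36.7 CPM. Pla2g15 was at 70.3 against 13.6 to 21.8 CPM, Plxnb2 at 62.3 against 6.48 to 15.7 CPM and Fam129a at 41.2 against 2.32 to 5.88 CPM. These correlations are a description over 6 points that share 1 high library; over the other 5 they were 0.988, 0.982, 0.955, 0.930 and 0.947.

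Slc25a28, mitoferrin 2, the form found in most tissues, was at 23.2, 25.4 and 23.8 CPM in WT 1 to 3 and at 15.9, 27.3 and 22.04 CPM in KO 1 to 3. The groups overlapped, and KO 1 was the lowest library, as it was for Slc25a37. KO over WT, the value was -0.15 on the log2 scale (SE 0.30, interval -0.86 to 0.56, edgeR adjusted p = 1.00) and -0.33 in the pairs 1 and 3 (interval -0.78 to 0.13, edgeR adjusted p = 0.57).

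Per kilobase of annotated exon, Slc25a37 made up 18.5%, 22.6% and 24.1% of the summed mitoferrin level in WT 1 to 3. In KO 1 to 3 it was 19.2%, 65.3% and 28.6%. Slc25a28 was thus the more abundant mitoferrin in 5 of 6 libraries, and Slc25a37 in KO 2 alone. With the length of the longest coding transcript in place of all exon bases, the ratio of Slc25a37 to Slc25a28 was 0.134 to 0.187 in WT, 0.140 and 0.237 in KO 1 and KO 3, and 1.11 in KO 2, the same split.

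Slc25a38 (ENSMUSG00000032519, chromosome 9, 120110374 to 120124504, plus strand) imports the glycine from which the first committed step of heme synthesis starts. Its level was 100, 85.9 and 69.5 CPM in WT 1 to 3 and 109.8, 100.9 and 76.8 CPM in KO 1 to 3. Each KO library lay slightly above the WT library of its number, but the groups overlapped widely. The log2 fold change was 0.17 (SE 0.27, interval -0.46 to 0.80, edgeR adjusted p = 1.00), and with the replicate block the interval was -0.15 to 0.49.

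Slc25a39 (ENSMUSG00000018677, chromosome 11, 102402985 to 102407946, minus strand) carries glutathione into mitochondria, where it is needed for iron-sulfur proteins and redox balance. It was at 207, 210 and 237 CPM in WT 1 to 3 and at 265, 253 and 278 CPM in KO 1 to 3, from 3045 to 4494 counts per library. All KO libraries were above all WT libraries, which held for no other of the 9 members tested and for 2.27% of all genes; 0 members and 1.75% of genes were lower without overlap, 4.03% of genes in either direction. Mean levels of 218 ± 16.7 and 266 ± 12.1 CPM (SD, n = 3) differed 1.22-fold (0.28 on the log2 scale, SE 0.24, interval -0.27 to 0.84, edgeR adjusted p = 1.00). In the pairs 1 and 3 the value was 0.29 (SE 0.11, interval 0.065 to 0.51, unadjusted p = 0.015), with an edgeR adjusted p of 0.23 over all genes, so it did not pass there either. Over the 13 fits, alternatives included, which reuse the same libraries, its log2 fold change stayed between 0.24 and 0.35. Within pairs 1, 2 and 3 the log2 difference was 0.36, 0.27 and 0.23, and KO 2 did not stand apart for this gene (0.092 above the other 5 in mean log2 CPM).

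Slc25a38, Slc25a39 and Abcb10 were higher in KO in 3 of 3 pairs, which 11.6% of all genes tested were. No member was lower in 3 of 3 pairs, as 13.3% of all genes were.

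**Figure D2:**
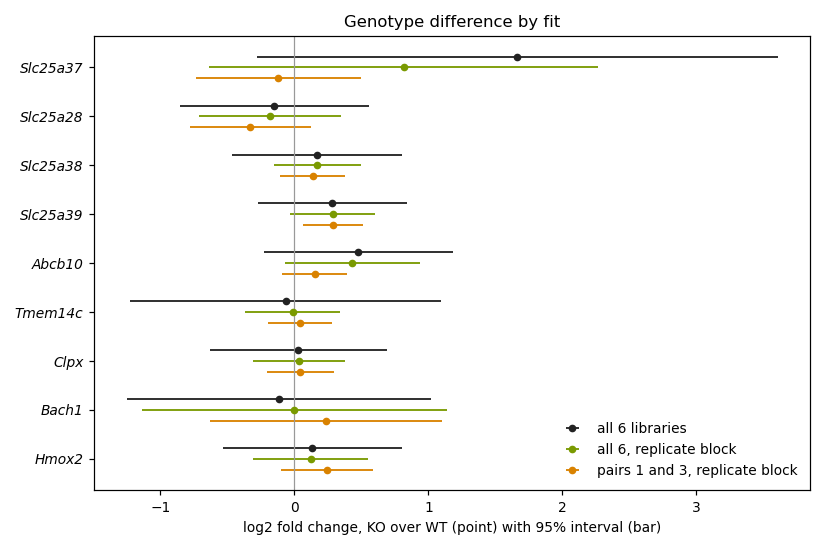
Points are log2 fold changes, KO over WT, and bars their 95% intervals for the 9 genes tested, from all 6 libraries (black), from all 6 with the replicate block (green) and from the pairs 1 and 3 with the block (orange). Every interval but that of Slc25a39 in the pairs 1 and 3 spans 0, and the Slc25a37 estimate moves from 1.66 to -0.12 between the first and the last fit.

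Abcb10 (ENSMUSG00000031974, chromosome 8, 123952459 to 123983122, minus strand), an ATP-binding cassette transporter of the inner mitochondrial membrane that binds and stabilises mitoferrin 1, was at 91.9, 95.6 and 113 CPM in WT 1 to 3 and at 102, 191 and 125 CPM in KO 1 to 3. As for mitoferrin 1, KO 2 was the highest library, here by 0.86 in log2 CPM over the mean of the other 5. KO 1 lay within the WT range. Its log2 fold change was 0.48 (SE 0.30, interval -0.23 to 1.18, edgeR adjusted p = 1.00), and in the pairs 1 and 3 it was 0.15 (interval -0.089 to 0.39, edgeR adjusted p = 0.64). Of the 9 members tested, 3 were highest in KO 2 (Slc25a37, Slc25a28 and Abcb10), against 23% of all genes tested. In bulk RNA, fewer or more cells of a type cannot be told apart from less or more RNA per cell.

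**Figure D3:**
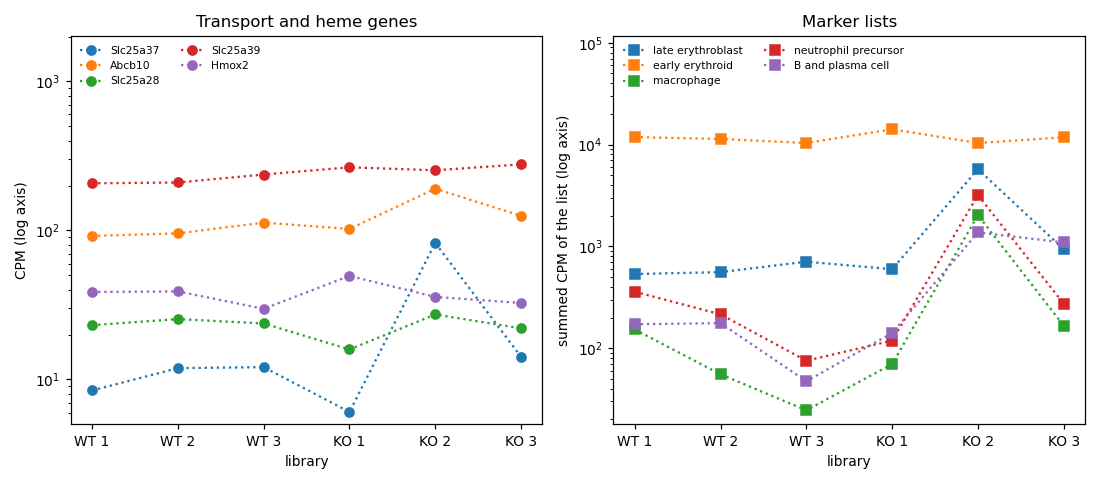
The left panel plots the CPM of 5 of the genes in each library and the right panel the summed CPM of 5 marker lists, both on log axes. Slc25a37, Abcb10 and, by less, Slc25a28 are highest in KO 2. The late erythroblast, macrophage, neutrophil precursor and B and plasma cell lists are highest there too, the last of them also high in KO 3. Slc25a39, Hmox2 and the early erythroid list are not highest in KO 2.

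Abcb6 (ENSMUSG00000026198, chromosome 1, 75171717 to 75180392, minus strand), a porphyrin transporter of the same family, was close to undetected. Its counts were 14, 7 and 1 in WT 1 to 3 and 9, 11 and 2 in KO 1 to 3 (exact 95% Poisson intervals from 0.0253 to 5.57 for 1 count and 7.65 to 23.5 for 14 counts, covering counting error only), and it did not pass the filter. Fitted without the filter, its log2 fold change was 0.18 (SE 1.06, edgeR adjusted p = 1.00). In GENCODE M21 (GRCm38), 18 of the 19 exons of its main coding transcript also lie in exons of Gm29253, a non-coding transcript on the same strand (chromosome 1, 75171731 to 75185146) that also holds 1832 exon bases of the neighbouring autophagy gene Atg9a. That is 93.6% of the 2966 transcript bases, and 55.2% of the 5315 bases in all annotated Abcb6 exons, of which 2383 lie outside Gm29253. The exon that Gm29253 lacks is exon 15, chr1:75172791-75172965 (GRCm38, minus strand), 175 coding bases shown here as the main stretch of that transcript outside Gm29253:
Abcb6 exon 15: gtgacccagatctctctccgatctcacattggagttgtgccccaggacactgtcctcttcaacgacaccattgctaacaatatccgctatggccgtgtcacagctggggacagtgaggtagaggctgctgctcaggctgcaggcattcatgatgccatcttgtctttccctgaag
Gm29253 was listed at 0 in all 6 libraries, whereas Atg9a had 278 to 888 counts. The sources used here do not say how reads in exons of more than 1 gene were counted, and the part of this overlap in the Abcb6 value was not tested.

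**Figure D4:**
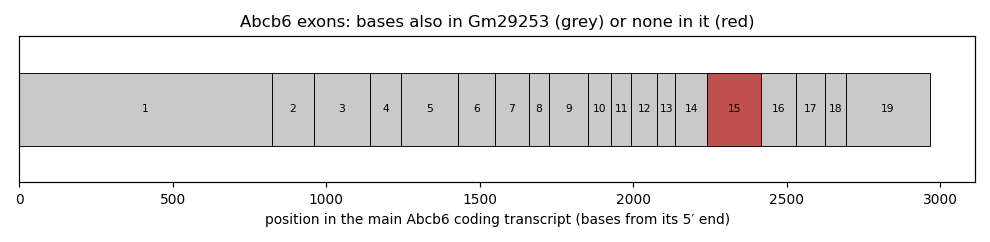
The 19 exons of the main Abcb6 coding transcript are drawn to scale along the transcript (bases from its 5′ end), grey where an exon shares bases with Gm29253 and red where it shares none. Only exon 15 is red; 14 bases of exon 19 also lie outside Gm29253.

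Tmem14c (ENSMUSG00000021361, chromosome 13, 41016292 to 41022586, plus strand) lets protoporphyrinogen IX enter the mitochondrial matrix and was the most abundant member per length. It was at 432, 300.4 and 133 CPM in WT 1 to 3 and at 398, 275 and 154 CPM in KO 1 to 3. The order of the replicate numbers was the same in both genotypes, and each KO library lay near the WT library of its number. The highest WT library was 3.25 times the lowest, while within pairs 1, 2 and 3 the log2 difference was -0.12, -0.13 and 0.21. The genotype interval narrowed from -1.23 to 1.10 without a block to -0.37 to 0.34 with the replicate block (log2 fold change -0.012, SE 0.14, edgeR adjusted p = 0.997).

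In the pairs 1 and 3, replicate 3 of both genotypes was compared with replicate 1, a comparison chosen after the data were seen and on libraries whose numbers were found to pair from these same data. Tmem14c was 2.90-fold lower in replicate 3 (log2 fold change -1.53, SE 0.11, edgeR adjusted p = 2.06e-08). Slc25a38 (-0.52) and Hmox2 (-0.49) were lower too, and Slc25a37 (0.87) and Abcb10 (0.30) higher, with edgeR adjusted p of 0.0011, 0.018, 0.019 and 0.036. These 5 of 9 members, 3 of them lower, stand beside 56.4% of all genes, with 27% lower, so the members' share was near the background. The labels give no meaning for the number, which cannot be told apart from sex in these pairs.

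Clpx (ENSMUSG00000015357, chromosome 9, 65294260 to 65330658, plus strand), the unfoldase that activates the first enzyme of heme synthesis and, with its protease partner Clpp, degrades it, was at 109.7, 91.9 and 142 CPM in WT 1 to 3 and at 127, 92.4 and 131 CPM in KO 1 to 3. The groups overlapped. Between genotypes the log2 fold change was 0.027 (SE 0.29, interval -0.63 to 0.69, edgeR adjusted p = 1.00), and with the replicate block the interval was -0.31 to 0.37.

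Bach1 (ENSMUSG00000025612, chromosome 16, 87698945 to 87733346, plus strand), the heme-binding repressor of Hmox1 and of globin and ferritin genes, was at 3.46, 9.65 and 10.03 CPM in WT 1 to 3 and at 8.26, 7.15 and 5.88 CPM in KO 1 to 3. These values rest on 75 to 141 counts. WT 1 was the lowest library and the other 2 WT libraries the highest, so the KO libraries lay inside the WT range. The log2 differences within pairs 1, 2 and 3 were 1.23, -0.43 and -0.76, with no common sign. The log2 fold change was -0.12 (SE 0.49, interval -1.25 to 1.02, edgeR adjusted p = 1.00), an interval that admits a 2-fold difference in either direction. The genes nearest to Bach1 over the 6 libraries, among 8812 compared, were Yy1 (Pearson r = 0.959), Ehd3 (0.951), Ddit4 (0.950), Ccdc77 (0.945) and Paf1 (0.928), all lowest in WT 1 as well. These correlations describe 6 points that share 1 low library, and they were not computed without WT 1.

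Hmox2 (ENSMUSG00000004070, chromosome 16, 4726361 to 4766742, plus strand), the constitutive heme oxygenase, was at 38.6, 39.0 and 29.8 CPM in WT 1 to 3 and at 49.5, 35.8 and 32.6 CPM in KO 1 to 3. KO 1 was the highest library and the other KO libraries lay within the WT range. KO over WT, the log2 fold change was 0.13 (SE 0.29, interval -0.53 to 0.80, edgeR adjusted p = 1.00). Of its exon bases 40.2% overlap exons of another gene on the opposite strand, that of Cdip1 (419 to 838 counts per library for Hmox2, 798 to 1118 for Cdip1), and the library kit does not mark the strand, so reads there cannot be assigned by strand.

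Ranked by CPM per kilobase of exon in WT, the order was Tmem14c (316 ± 164), Slc25a39 (79.1 ± 6.05), Clpx (32.8 ± 7.30), Slc25a38 (31.0 ± 5.57), Abcb10 (23.2 ± 2.59), Hmox2 (16.2 ± 2.35), Slc25a28 (6.43 ± 0.31), Slc25a37 (1.80 ± 0.34), Bach1 (1.25 ± 0.60) and Abcb6 (0.0752 ± 0.0557) (SD, n = 3). The WT ranges of Clpx, Slc25a38 and Abcb10 overlapped between neighbours, as did those of Slc25a37 and Bach1, and the other neighbours did not overlap. With the longest coding transcript as the length, Slc25a38 and Clpx changed places and the rest kept their rank. By mean the KO order differed in the same exchange alone, Slc25a38 (34.9) standing above Clpx (33.4). The place of Abcb6 depended on which bases its counts came from, which was not tested. Divided by the 189 bases of its main transcript outside Gm29253 alone, its WT mean was 2.12 ± 1.57 CPM per kilobase. That mean lies above those of Slc25a37 and Bach1 per kilobase of all their exon bases. Per kilobase of the longest coding transcript, the nearer match in length, it lies below Slc25a37 (2.59) and above Bach1 (1.315). The 2383 bases outside Gm29253 among all annotated Abcb6 exons were not used as a length, and they would give a lower value.

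**Figure D5:**
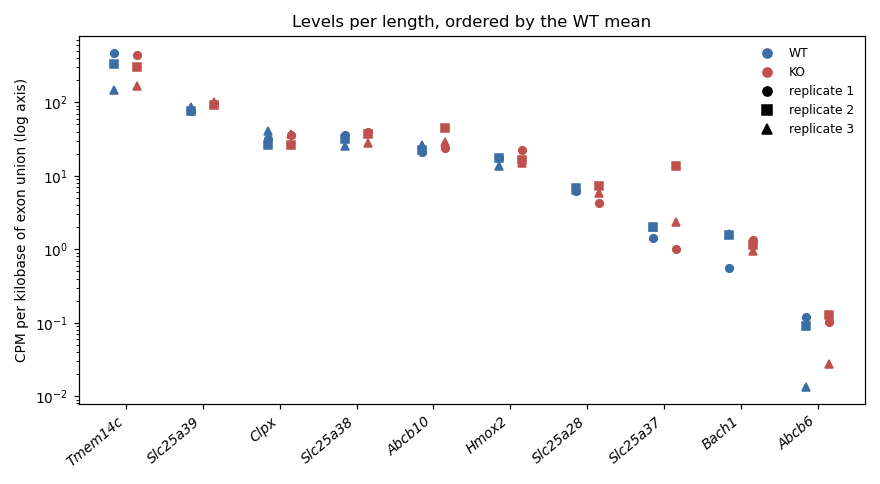
Points are CPM per kilobase of exon (log axis) for each library, blue for WT and red for KO, with genes ordered by the WT mean. Levels run from 0.0134 for Abcb6 in WT 3 to 473 for Tmem14c in WT 1, and the KO 2 point of Slc25a37 lies apart from the other 5. The Abcb6 points are divided by all its exon bases, including those shared with Gm29253.

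Of 9 heme synthesis enzymes 8 had a higher estimate in KO (median log2 fold change 0.71), as had 6626 of 13453 genes tested. Of the enzymes, 0 passed over all 6 libraries. In the pairs 1 and 3, 35 of 13572 genes passed as higher in KO and 82 as lower. The median of the enzymes there was 0.20, and 2 rose with 0 falling. These were Alas2, the erythroid enzyme of the first step (5.26 and 3.27 CPM in WT 1 and WT 3, 13.5 and 19.4 CPM in KO 1 and KO 3, log2 fold change 1.93, edgeR adjusted p = 0.0095), and Cpox, which makes protoporphyrinogen IX, the cargo of Tmem14c (0.60, edgeR adjusted p = 0.017). Fech, the iron-inserting enzyme that sits in a complex with Abcb10 and mitoferrin 1, had a value of 0.36 there (edgeR adjusted p = 0.14), and Alas1, the housekeeping form of the first enzyme, 0.11 (0.79). Alas2 is itself one of the 10 late erythroblast markers. Of these, 9 had a higher estimate in these pairs (median 1.196), as had 6425 of 13261 genes tested in both fits. Of the same markers, 4 rose with 0 falling. Beside Alas2 these were the globin genes Hbb-bs (1.68, edgeR adjusted p = 1.2e-04), Hba-a1 (1.30, edgeR adjusted p = 1.5e-04) and Hbb-bt (1.30, edgeR adjusted p = 0.016). The summed level of the list was 536 and 708 CPM in WT 1 and WT 3 and 597 and 938 CPM in KO 1 and KO 3, of which Ermap, also on the early erythroid list, made up 307.5 and 569 CPM and 249 and 561 CPM. The part of these markers in the Alas2 and Cpox values was not tested. The 9 members had a median of 0.14 in the same pairs.

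Of 10 genes of heme export, import and breakdown, 9 were tested, 5 with a higher and 4 with a lower estimate (median 0.039), and 0 passed in either fit. Hmox1, the inducible heme oxygenase that BACH1 represses, was at 34.9, 17.4 and 3.56 CPM in WT 1 to 3 and at 7.40, 211 and 23.1 CPM in KO 1 to 3. Its high value in KO 2 coincided with those of the macrophage list and of the other marker lists highest there, whose part was not tested. In the pairs 1 and 3 its log2 fold change was 0.079 (edgeR adjusted p = 0.98). Pgrmc2, a heme chaperone, had a value of 0.40 there (edgeR adjusted p = 0.33), and Flvcr1, an exporter of heme, ranged from 38.6 to 55.0 CPM over the WT and from 37.3 to 61.9 CPM over the KO libraries.

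Among 10 partners and paralogs of the members, 5 had a higher and 5 a lower estimate (median 0.0069, with 0 passing in either fit). Fam210b, which helps iron reach ferrochelatase, had a log2 fold change of 0.52, and Iscu, the iron-sulfur scaffold, 0.22. Among 16 genes of heme sensing and the BACH1 circuit, 10 had a higher and 6 a lower estimate (median 0.12), and 0 passed in either fit. Nr1d2, a heme-binding nuclear receptor, had a value of -0.52, Maff, a small partner of BACH1, -0.71, and Nqo1, a quinone reductase that BACH1 represses, -0.49, each with an edgeR adjusted p of 1.00.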

How the data were processed

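The members and gene lists were chosen with earlier results of these data known. The authors deposited 1 table of unscaled whole-number read counts, a row per gene and a column per library. Per the submitters' processing notes, FastQC 0.11.5, STAR 2.5.3a and edgeR were used; the notes list GRCm38.p3 and GRCh38.p3 as builds. The counter, its strand setting, its handling of reads in several genes and its annotation are unstated. Per the labels' protocols, SMART-Seq v4 amplification preceded Nextera XT library preparation, neither of which marks strand.

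The filter was edgeR 4.0.16's filterByExpr (minimum count 10, minimum total 15), and scaling was TMM. Genotypes were compared over the 6 libraries with glmQLFit and glmQLFTest in R 4.3.3, two-sided, with Benjamini-Hochberg adjustment over all genes tested and a threshold of 0.05. SE and 95% intervals come from the fitted weights and moderated dispersion. Log2 CPM per library add a prior count of 2. The floor of 3 counts is 0.138 to 0.220 CPM. The fits were tested on simulated data. Alternatives were the replicate block, the pairs 1 and 3 with it (1 residual degree of freedom, prior 14.5), DESeq2 1.42.0, RLE and upper quartile scaling, no filter, and leaving out each library. Each library is a separate pool of mice, and p-values over the 6 libraries measure the spread between pools, moderated over genes. In the pairs 1 and 3, with 1 residual degree of freedom against a prior of 14.5, they rest mostly on the spread of other genes. Those p-values say little about the spread of a single gene between pools.

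Both genotypes carry replicate numbers 1 to 3. Across genes, the deviations of same-numbered libraries from their group means correlated at 0.53, 0.16 and 0.63 for numbers 1, 2 and 3, each over 0.1. The numbers were therefore taken as pairs, from the data and not from a label. The link was weak for number 2, which enters the block over all 6 libraries and the counts over 3 of 3 pairs. Deviations within a group cancel out, so the correlations are not independent of each other. Exon overlap, lengths and transcript sequences are from GENCODE M21 (GRCm38), in which 52319 of 52459 table genes matched by ID. Flvcr1 and Flvcr2 were matched through the older symbols Mfsd7b and Mfsd7c. The rule for naming genes took all members and list genes past the threshold in the 6 libraries or in the pairs 1 and 3. It added up to 4 further genes of smallest p per list, marker lists aside, and the 5 genes most correlated with Slc25a37 and with Bach1.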

Additional observations from a re-analysis of the deposited data

How the results depend on the processing

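Of 108 values for the 9 members tested under 12 alternatives, 94 kept their direction and side of the threshold, 14 changed sign and 0 passed the threshold. Slc25a38, Slc25a39 and Abcb10 were higher in KO in each of the 13 fits. These fits reuse the same 6 libraries, so a shared sign is not independent support. The groups of Slc25a39 did not overlap, so leaving out a library could hardly turn its sign. The share of all genes that kept their sign over these fits was not counted. Among all genes the number past the threshold was 0 in the 6 libraries, with and without the replicate block, 117 in the pairs 1 and 3 with the block and 6 with DESeq2. In those pairs Slc25a37 turned to -0.12, Tmem14c to 0.041 and Bach1 to 0.24, where the same block over all 6 libraries gave 0.82, -0.012 and -0.00045; the block changed no member's call. Leaving out 1 library at a time moved the log2 fold change of Slc25a37 between -0.099 (without KO 2) and 2.15, of Slc25a28 between -0.35 and 0.026, of Tmem14c between -0.43 and 0.34, of Clpx between -0.10 and 0.21, of Bach1 between -0.48 and 0.12 and of Hmox2 between -0.073 and 0.25. Apart from the libraries left out, the cause was not tested. Abcb6, at 44 counts in all, was fitted only without the filter on low counts (0.18, SE 1.06).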

Other observations

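Flvcr2, a relative of the heme exporter Flvcr1 that has been described as a heme importer and a choline carrier, did not pass the filter and was picked out after its values were seen. It had 7, 8 and 5 counts in WT 1 to 3 and 1, 0 and 0 counts in KO 1 to 3. The total of 1 count against 20 gave a KO to WT ratio of 0.0546, with an exact 95% counting interval of 0.0013 to 0.341 that leaves out the spread between libraries. Without the filter on low counts, edgeR gave a log2 fold change of -3.86 (SE 1.80, unadjusted p = 0.020, adjusted p = 1.00).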
